A study of Mus musculus with 96 samples.

Results

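The comparison covers the livers of CBA/J mice on a calorie-restricted diet and of CBA/J mice on a control diet. It was taken from the array labels, which give 8 restricted and 8 control livers, 16 of the 96 arrays of the series. All mice were male and were housed alone. They arrived at 6 weeks of age and for 2 weeks ate a purified diet that gave 84 kcal weekly. From 8 weeks of age one group received a diet cut by 25% in calories and the other stayed on the control diet, and livers were collected at 22 weeks, after 14 weeks on the diets. Each array held RNA from 1 mouse, with no pooling. The other 5 strains (129S1/SvImJ, C57BL6/J, C3H/HeJ, DBA/2J and B6C3F1/J) went through the same 2 diets, again with 8 mice per group, and their 80 arrays serve here as an independent set of restricted and control livers.

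The liver stores and releases fuel for the rest of the body. After a meal insulin drives glycogen storage and the making of fatty acids and cholesterol through the transcription factors SREBP1 and SREBP2. Between meals FOXO1, PPAR-alpha and glucagon signalling drive glucose production, fatty acid oxidation and the breakdown of amino acids. Mice on a restricted ration usually eat it within a short time and then fast, so their livers pass through both states each day. Sex-biased liver genes follow the pattern of growth hormone release and are known to shift under food restriction.

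The values are MAS5 signals from an expression array, an intensity with no further unit. They were turned into log2 values, quantile-normalized over all 96 arrays and fitted with limma for 14813 genes. The spread of a gene was estimated over all 12 strain-by-diet groups together. Each difference is restricted minus control on the log2 scale with its SE, so that a difference of 1 is a doubling, and a gene counts as called at an adjusted p under 0.05. Levels belong to 1 probe set and are never compared between genes.

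The 8 restricted arrays stood apart from the 8 control arrays before any gene was looked at. As deposited, the median log2 signal lay between 6.99 and 7.50 in restricted arrays and between 6.42 and 6.63 in control arrays. The interquartile range was 3.26 ± 0.08 in restricted arrays and 3.74 ± 0.12 in control arrays (SD, n = 8 each), so the restricted values were spread over a narrower range. The 5th percentile was 3.29 ± 0.28 in restricted arrays and 2.14 ± 0.10 in control arrays. For Gapdh the 3' control probe set minus the 5' one was -0.03 ± 0.16 in restricted arrays and -0.40 ± 0.07 in control arrays. None of these 4 measures overlapped between the diets (exact permutation p = 0.00016 each, adjusted over 16 measures to 0.0005; no smaller p is possible with 12870 splits). For beta-actin it was 1.26 ± 0.40 in restricted arrays and 1.18 ± 0.18 in control arrays, and did not differ beyond its spread (exact permutation p = 0.64). Restricted arrays also resembled each other less (Pearson r across genes 0.82 to 0.882) than control arrays did (0.887 to 0.934). The diet difference of the median was 0.77 in CBA/J and between -0.30 and 0.30 in the other 5 strains. That of the Gapdh measure was 0.37 in CBA/J, inside the range of the other strains (-0.07 to 0.39). Of the 80 arrays of the other strains, 6 had a median at or above that of the lowest restricted CBA/J array. The files give no scan or hybridization order, so diet and array set cannot be told apart in CBA/J.

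**Figure D1:**
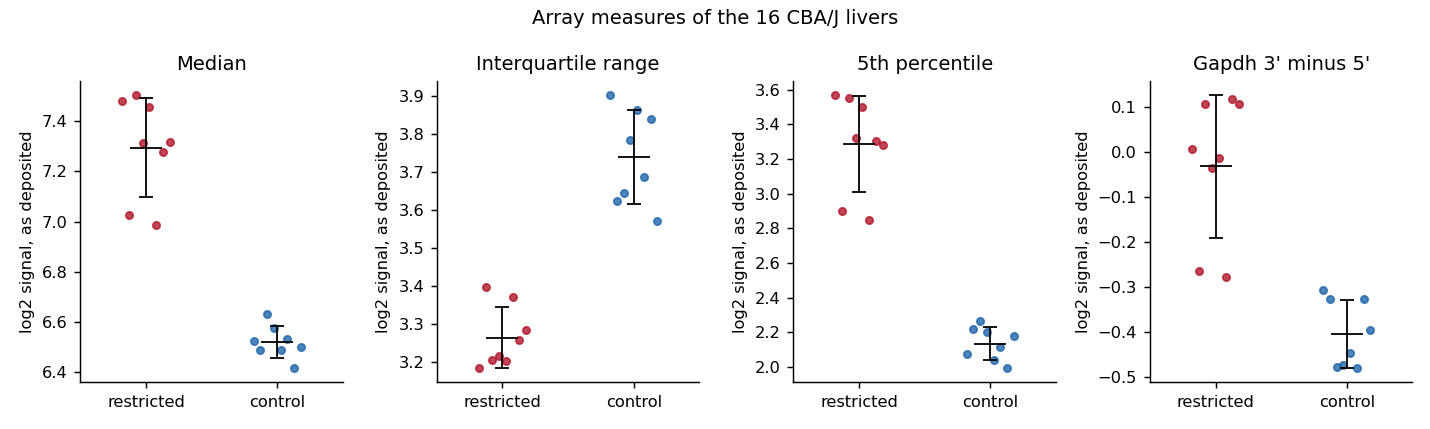
Points are single CBA/J livers, restricted on the left and control on the right, and black marks are the mean with SD. The panels show the array median, interquartile range and 5th percentile of log2 signal and the Gapdh 3' minus 5' difference, and in each panel the 8 restricted arrays lie clear of the 8 control arrays.

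Because of this, every direction was checked under 4 scalings: quantile normalization, the deposited scale, centring on the 75th percentile and centring on the median. The median difference of all genes was 0.07, 0.32, 0.17 and -0.46 under these scalings in the same order. With quantile normalization 2008 genes were higher (13.6%) and 2550 were lower (17.2%) in restricted livers. Of these, 1672 and 2290 differed by at least 1.5-fold. The 2 shares, 13.6% and 17.2%, are the background for every list count below. On the deposited scale the counts were 3714 higher and 2308 lower, with 75th percentile centring 2652 and 2606, and with median centring 447 and 5274. A total of 417 genes were called higher (2.82%) and 1877 lower (12.7%) under all 4 scalings. Of 133 named genes called after quantile normalization, 88 held under all 4 scalings. Median centring ended the call of 36, all of them higher in restricted livers. These were Srebf1, Acaca, Acss2, Pnpla2, Mvd, Pmvk, Srebf2, Acads, Gpt, Slc37a4, Pck1, G6pc, Aldoa, Gys2, Ppp1r3g, Asl, Agxt, Prodh, Cbs, Ndufs8, Cyp2b9, Abcb4, Foxo1, Akt2, Csnk1e, Mt2, Irf7, Oas1a, H2-K1, H2-D1, H2-Eb1, Cd74, Keap1, Adgre1, Clec4f and Kdr. The deposited scale ended the call of 9, all lower in restricted livers, namely Acadm, Fgf21, Ldha, Cox5a, Ugt2b1, Cyp3a25, Ghr, Hspa5 and Apoc4. Probe sets are a further limit: of 68 called named genes with more than 1 kept probe set, 17 had every other set called the same way and 33 had none. The 2 diets did not overlap at all for 680 of the genes called higher and 844 of the genes called lower.

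**Figure D2:**
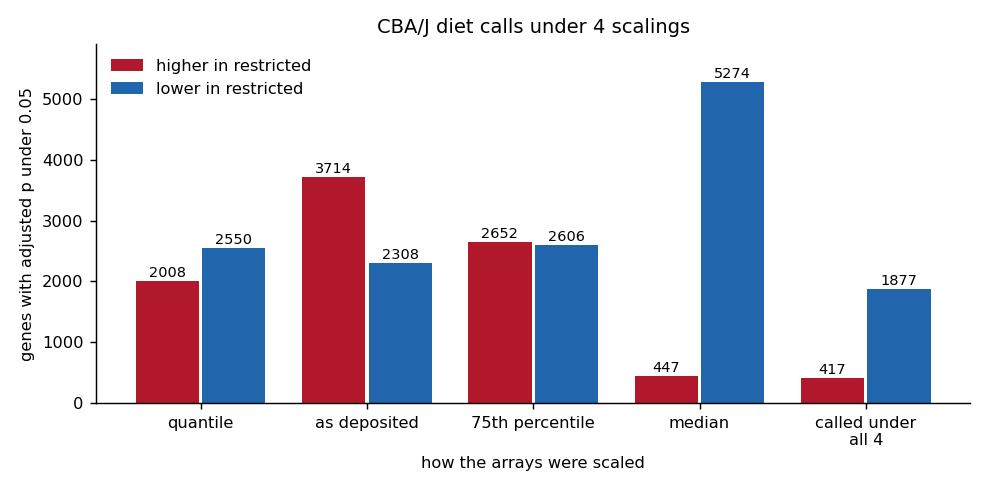
Bars count the genes called higher (red) or lower (blue) in restricted CBA/J livers at an adjusted p under 0.05, with the array scaling on the horizontal axis. The number of higher genes runs between 447 and 3714, while 417 higher and 1877 lower genes were called under every one of the 4 scalings.

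The response that CBA/J shared with the other strains included Nnmt, Gstm3, Igfbp1 and Acacb among the higher genes and Serpina12, Vnn1, Hsd3b5 and Cyp7a1 among the lower genes. Over the other 5 strains the mean diet effect called 1256 genes higher (8.48%) and 980 lower (6.62%). CBA/J called 409 of the 1256 higher in the same direction, 32.6% of that list and 20.4% of the CBA/J higher genes. It called 396 of the 980 lower genes in the same direction, 40.4% of that list and 15.5% of the CBA/J lower genes. In the opposite direction CBA/J called 69 of the 1256 and 127 of the 980. Of the shared genes, 48 higher and 325 lower ones held under all 4 scalings. Across all genes the 2 sets of differences had a Pearson r of 0.209 and a Spearman rho of 0.205, a description over genes that share arrays and are not replicates. The SD of the differences over genes was 0.87 in CBA/J and 0.32 for the mean of the other 5 strains, which averages over 5 times as many mice.

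Nnmt, which methylates nicotinamide and so removes it from NAD recycling, had log2 signals of 10.61 at the lowest, 11.15 at the median and 11.70 at the highest in restricted livers, against 7.25, 8.67 and 10.82 in control livers. Only the highest control mouse reached the restricted range. Its difference was 2.48 ± 0.38 (SE, adjusted p = 1.75e-07), beside 3.42 for the mean of the other 5 strains, where it ran from 1.76 in C57BL6/J to 4.76 in C3H/HeJ. Gstm3, a mu-class glutathione transferase that is higher in female than in male liver, had 12.92, 13.45 and 13.93 in restricted livers and 9.21, 10.66 and 11.998 in control livers. All restricted mice lay higher, and the difference of 2.67 ± 0.38 (adjusted p = 3.24e-08) was close to the 2.91 of the other strains. Ifi27l2b, of the interferon-inducible Ifi27 family, rose by 2.83 ± 0.52, with 10.17, 10.62 and 11.10 in restricted livers and 6.72, 7.91 and 8.69 in control livers. For Nnmt, Gstm3 and Ifi27l2b the test of CBA/J against the other 5 strains gave adjusted p of 0.089, 0.72 and 0.19, and all 3 held under all 4 scalings.

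**Figure D3:**
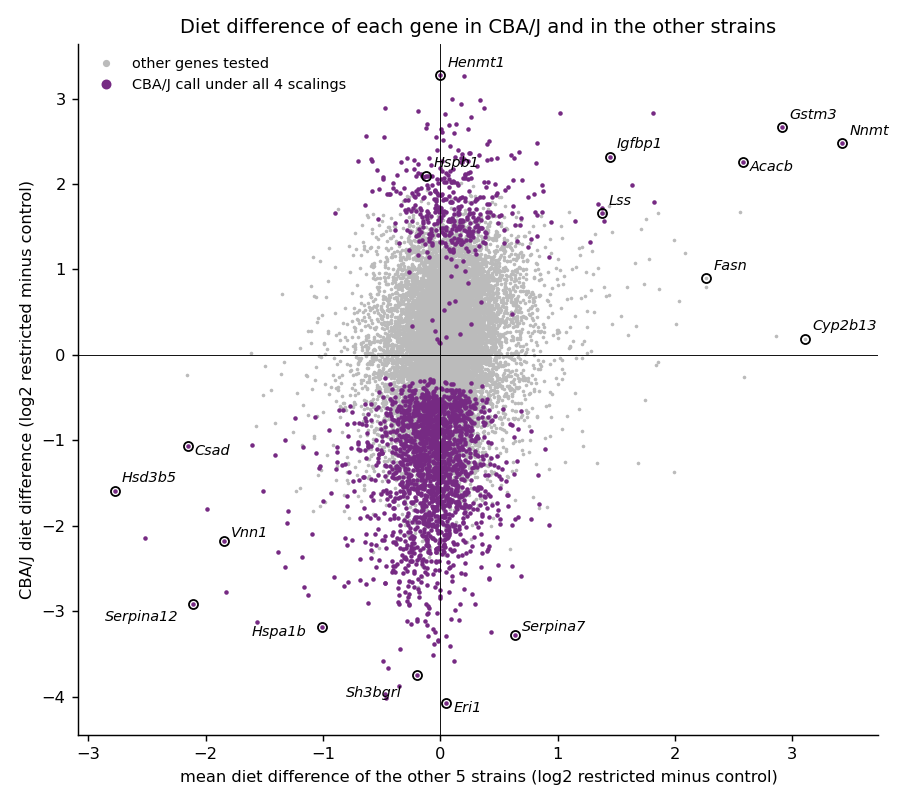
Each point is a gene, with the CBA/J diet difference on the vertical axis and the mean diet difference of the other 5 strains on the horizontal axis, both log2 restricted minus control. Nnmt, Gstm3, Igfbp1 and Acacb lie high in both, Serpina12, Vnn1 and Hsd3b5 lie low in both, while Henmt1, Hspb1, Eri1 and Sh3bgrl lie near 0 for the other strains.

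In insulin and FOXO signalling 6 of 18 measured genes rose and 1 fell (33.3% and 5.56%, against 13.6% and 17.2% of all genes), with a median of 0.45 against 0.07 for all genes. Of the 6, 1 held under all 4 scalings, and with median centring the list median was -0.25 against -0.46 for all genes. Igfbp1, a FOXO1 target that binds IGF1 and rises in fasting, had 13.01, 13.39 and 14.25 in restricted livers and 10.004, 11.14 and 11.87 in control livers. All restricted mice lay above all control mice, and the difference of 2.32 ± 0.34 (adjusted p = 5.82e-08) held under all 4 scalings. In the other strains Igfbp1 rose by 1.44 on average, with 2.38 in C57BL6/J and only 0.33 in 129S1/SvImJ. Foxo1 itself rose by 1.43 ± 0.26 and Akt2, an insulin-signalling kinase, by 0.73 ± 0.14, but with median centring Akt2 was at -0.19. Irs1, the adaptor below the insulin receptor, fell by 0.80 ± 0.16 on the log2 scale. In the growth hormone axis 0 of 13 measured genes rose and 3 fell. Ghr, the growth hormone receptor, fell by 0.55 and Socs2, its feedback inhibitor and target, by 1.29. On the deposited scale, with array medians in the model, Ghr was at 0.53 (adjusted p = 0.009), a call in the opposite direction. Igf1 was not called (0.26 ± 0.18, adjusted p = 0.279) by its brightest probe set, but its other 3 probe sets were lower in restricted livers, by -0.42, -1.17 and -1.40.

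Of 21 measured genes of fatty acid synthesis 5 rose and 0 fell (23.8% higher against 13.6% of all genes), with a median of 0.39 that was -0.12 with median centring. The mean of the other 5 strains, which rests on 40 mice per diet, called 15 higher and 0 lower with a median of 0.65. The test of CBA/J against the other strains called 0 of the 21 higher and 5 lower (23.8% against 14.8% of all genes). Acacb, the acetyl-CoA carboxylase of mitochondria whose product blocks fatty acid entry, had 11.49, 12.06 and 12.53 in restricted livers and 8.29, 9.84 and 10.99 in control livers. No control mouse reached the restricted range, and the difference of 2.26 ± 0.59 (adjusted p = 0.00149) stood beside 2.58 in the other strains. Srebf1, the gene of SREBP1, rose by 1.19 ± 0.27, Acaca, the cytosolic carboxylase, by 1.47 ± 0.34, and Acss2, which makes acetyl-CoA from acetate, by 1.20 ± 0.34. Of these 4 genes Acacb alone held under all 4 scalings. Fasn, the fatty acid synthase, had 12.54, 13.37 and 14.23 in restricted livers and 11.05, 12.62 and 14.22 in control livers. The ranges overlapped widely, and Fasn was not called in CBA/J (0.90 ± 0.65, adjusted p = 0.314), beside 2.27 in the other strains. The difference between them was not called either (-1.37 ± 0.72, adjusted p = 0.16). Scd1, the stearoyl-CoA desaturase, sat at the top of the signal range in both diets and was not called after quantile normalization (-0.06 ± 0.18), but was higher in restricted livers by 1.56 on the deposited scale.

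Of 19 measured cholesterol synthesis genes 7 rose, 0 fell and 12 were not called, 36.8% higher against the 13.6% of all genes, with a median of 0.65. With median centring the list median was -0.07 against -0.46 for all genes, so under both scalings the list lay above the median gene. The mean of the other strains called 17 of the 19 higher. Lss, the lanosterol synthase, had 10.67, 10.91 and 11.57 in restricted livers and 8.89, 9.40 and 9.79 in control livers. No control mouse reached the restricted values, and the difference of 1.66 ± 0.25 (adjusted p = 1.01e-07) was called under all 4 scalings, beside 1.37 in the other strains. The other 2 Lss probe sets were not called. Pmvk and Mvd, successive enzymes of the mevalonate pathway, rose by 1.13 ± 0.31 and 1.10 ± 0.30, and Srebf2, the gene of SREBP2, by 1.18 ± 0.37. Fdps, the farnesyl diphosphate synthase, had 13.48, 13.80 and 14.53 in restricted livers and 12.31, 12.97 and 14.21 in control livers, and was not called (0.79 ± 0.56, adjusted p = 0.299), although it rose by 2.26 in the other strains. The difference between CBA/J and those strains for Fdps was not called (-1.47 ± 0.62, adjusted p = 0.071). Hmgcs1, the entry enzyme, gave 0.65 ± 0.33 (adjusted p = 0.134) by its brightest probe set, while 2 dimmer probe sets fell by 1.69 and 1.61 in CBA/J and were at 0.70 and 0.74 for the mean of the other strains.

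Genes for handling stored lipid were mixed. Of 21 measured genes of triglyceride assembly and lipid droplets 5 rose and 4 fell (23.8% and 19.0%, against 13.6% and 17.2% of all genes). Pnpla2, the triglyceride lipase of lipid droplets, rose by 1.65 ± 0.29 (adjusted p = 2.89e-06), with 11.74, 11.97 and 12.38 in restricted livers and 8.74, 10.52 and 11.14 in control livers. Its rise was 1.22 ± 0.32 larger than in the other strains (adjusted p = 0.0019). With median centring the Pnpla2 difference was 0.81 (adjusted p = 0.061) and the contrast 0.36 (adjusted p = 0.51). Cd36, which takes up fatty acids, fell by 1.35 ± 0.25 and was 1.40 ± 0.28 below the effect in the other strains (difference -1.40, adjusted p = 5.4e-05).

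**Figure D4:**
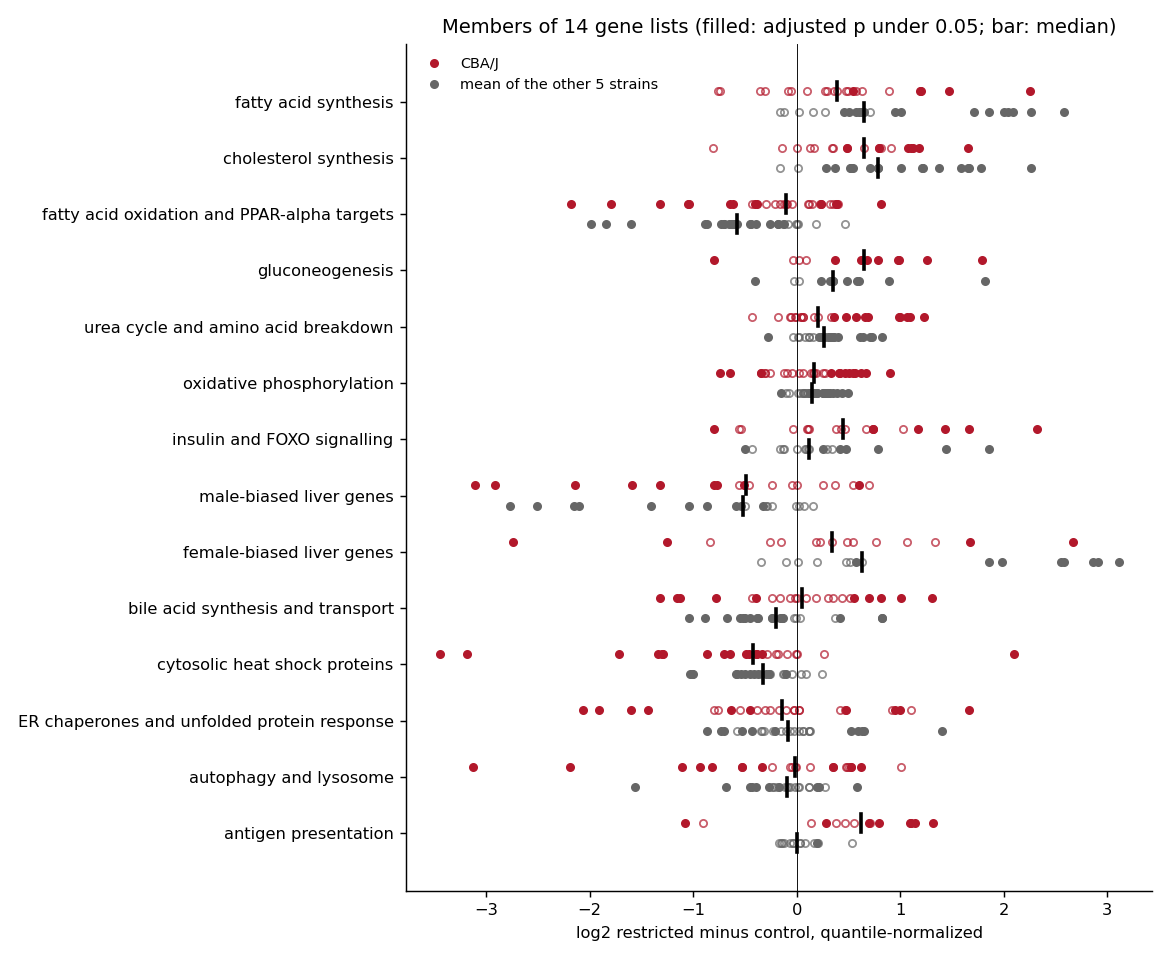
Points are measured genes of 14 lists, red for CBA/J and grey for the mean of the other 5 strains, filled where the adjusted p was under 0.05, and the black bar is the list median of log2 restricted minus control. The median of cholesterol synthesis lies to the right and that of heat shock proteins to the left of 0 in both, while that of fatty acid oxidation lies further left in the other strains than in CBA/J.

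Fatty acid oxidation and PPAR-alpha target genes fell in part. Of 29 measured genes 4 rose and 9 fell (13.8% and 31.0%, against 13.6% and 17.2% of all genes), with a median of -0.10. The mean of the other strains called 0 higher and 22 lower with a median of -0.57. The test of CBA/J against the other strains called 13 of the 29 higher and 0 lower, against 9.73% higher and 14.8% lower of all genes. Vnn1, a pantetheinase and PPAR-alpha target, had 10.83, 11.16 and 12.01 in restricted livers and 12.78, 13.54 and 14.02 in control livers. The groups did not overlap, and the difference of -2.18 ± 0.25 (adjusted p = 2.19e-11) stood beside -1.84 in the other strains. Slc25a20, the carnitine-acylcarnitine carrier of mitochondria, fell by 1.04 ± 0.14 and Acadm, the medium-chain acyl-CoA dehydrogenase, by 0.61 ± 0.13. Cyp4a14, an omega-hydroxylase and PPAR-alpha target, fell by 1.05 ± 0.39 (adjusted p = 0.0302), a call that was lost when any of 6 CBA/J mice was left out. Fgf21, a fasting hormone, fell by 1.32 ± 0.39, with 1 restricted mouse down at 4.70 and a restricted median of 7.23 beside a control median of 8.22. Acads, the short-chain dehydrogenase, rose by 0.81 ± 0.18 and its difference from the other strains was 0.81 ± 0.19 (adjusted p = 0.00074). With median centring Acads was at 0.056 (adjusted p = 0.91) and its contrast at 0.011 (adjusted p = 0.98). Cpt1a, the gate of fatty acids into mitochondria, and Ppara itself were not called by the probe sets used (0.40 ± 0.23 and 0.36 ± 0.24, adjusted p = 0.195 and 0.274). Dimmer Cpt1a probe sets were at -1.31 (called lower, adjusted p = 0.000195) and -0.04 (not called).

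Of 12 measured gluconeogenesis genes 8 rose and 1 fell (66.7% higher against 13.6% of all genes), with a median of 0.65. Of the 8, 2 held under all 4 scalings. With median centring the list median was 0.34 against -0.46 for all genes. Mdh1, counted among the 8, had 2 other probe sets called lower. Pck1, the gate enzyme of gluconeogenesis, rose by 0.99 ± 0.24, with 14.47, 14.79 and 14.94 in restricted livers and 12.56, 13.84 and 14.24 in control livers. Slc37a4, the glucose-6-phosphate carrier, rose by 0.68 ± 0.14 and Gpt, which turns alanine to pyruvate, by 0.97 ± 0.17. G6pc, the glucose-6-phosphatase, rose by 0.79 ± 0.29 (adjusted p = 0.0262), a call lost without restricted replicate 5 or control replicate 2. With median centring the calls of Pck1, Slc37a4, Gpt and G6pc were lost. Gpt2, the mitochondrial partner of Gpt, was the gene that fell, by 0.80 ± 0.16 by the probe set used. Its other 3 probe sets were at 0.02, 0.70 and -0.06, none of them called. Of 13 glycolysis genes 3 rose and 2 fell, with a median of 0.11, among them Aldoa, an aldolase, at 1.04 ± 0.23 and Ldha, the lactate dehydrogenase, which fell by 0.46 ± 0.12. On the deposited scale with array medians in the model Ldha was at 0.53 (adjusted p = 0.033), again the opposite direction. Of 12 glycogen genes 4 rose and 1 fell, and their median of 0.07 equalled that of all genes. Gys2, the liver glycogen synthase, rose by 1.02 ± 0.23 and Ppp1r3g, which targets a phosphatase to glycogen, by 1.67 ± 0.49, beside 0.98 and 1.85 in the other strains.

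Of 23 measured genes of the urea cycle and amino acid breakdown 10 rose and 0 fell, 43.5% against 13.6% of all genes. Oat, the ornithine aminotransferase, had 14.71, 14.95 and 15.23 in restricted livers and 13.15, 13.64 and 14.39 in control livers. Its rise of 1.23 ± 0.22 held under all 4 scalings and exceeded that of the other strains by 0.93 ± 0.24 (adjusted p = 0.0018). Asl, the argininosuccinate lyase, rose by 0.99 ± 0.17, Prodh, the proline dehydrogenase, by 1.07 ± 0.20, and Agxt, which detoxifies glyoxylate, by 0.66 ± 0.12. In folate and methionine metabolism 7 of 20 genes rose and 4 fell, with Aldh1l1 at 1.27 ± 0.21, Cbs at 1.12 ± 0.20 and Bhmt2 at -0.95 ± 0.15. Csad, which makes taurine from cysteine, fell by 1.07 ± 0.32, less than in the other strains (difference 1.08 ± 0.35, adjusted p = 0.014), where it fell in all 5.

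Oxidative phosphorylation had 28 measured genes. Restricted livers were higher for 10 (35.7% against 13.6% of all genes) and lower for 3 (10.7% against 17.2%). Under all 4 scalings 0 of the 10 and 1 of the 3 held. The list median was 0.16 against 0.07 for all genes, and -0.11 against -0.46 with median centring. Another probe set was called the opposite way for 4 called genes of this list. Ndufa9, a complex I subunit, fell by 0.64 ± 0.09 under all 4 scalings, and Ndufs8, another, rose by 0.90 ± 0.10, with 1 of its other 5 probe sets called lower (-0.33, adjusted p = 0.0375). Of 18 genes of NAD metabolism and sirtuins 6 rose and 2 fell. Sirt1, an NAD-dependent deacetylase, had 4.17, 7.63 and 8.44 in restricted livers and 8.50, 8.86 and 9.45 in control livers. Its difference was -1.65 ± 0.36 (adjusted p = 0.000128), with -0.00 for the mean of the other strains. Ppargc1a, the coactivator of mitochondrial genes, was not called (-0.03 ± 0.22).

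Of 18 measured male-biased liver genes 1 rose and 8 fell (44.4% lower against 17.2% of all genes), with a median of -0.49 in CBA/J and -0.52 in the other strains. Serpina12, which encodes the adipokine vaspin, had 8.80, 10.06 and 11.17 in restricted livers and 12.37, 12.95 and 13.51 in control livers. All restricted mice lay below all control mice, and the difference of -2.92 ± 0.49 (adjusted p = 1.26e-06) was called under all 4 scalings. The other strains averaged -2.11, with -1.11 in B6C3F1/J and -4.08 in DBA/2J. Hsd3b5, a male-specific steroid dehydrogenase, fell by 1.59 ± 0.50, Cyp7b1, the oxysterol hydroxylase, by 1.32 ± 0.28 and Ugt2b1, a glucuronosyltransferase, by 0.77 ± 0.15. Mup20 was not measured.

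Among the female-biased genes 15 were measured, of which 2 rose and 2 fell (13.3% each, close to the share of all genes) and 8 lay below the array median in both diets. Beside Gstm3, Cyp2b9 rose by 1.67 ± 0.62 (adjusted p = 0.0298), a call lost when any of 3 mice was left out. Cyp2b13, a cytochrome P450, and Hao2, a hydroxy acid oxidase, were at 0.19 ± 0.69 and 0.22 ± 0.70 in CBA/J, below the array median in both diets. They rose by 3.11 and 2.86 in the other strains, and the contrast with the other strains was called for both (-2.92 ± 0.75 and -2.64 ± 0.77, adjusted p = 0.0019 and 0.0062). The other strains also differed among themselves, since Cyp2b13 rose by 5.92 in C3H/HeJ and by 0.00 in 129S1/SvImJ. Cyp2b10 was not called (1.34 ± 0.64, adjusted p = 0.102). Cux2, a female-biased transcription factor, fell by 2.74 ± 0.56 to a dim level.

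Bile acid genes went both ways. Of 22 measured genes 5 rose and 5 fell (22.7% each, against 13.6% and 17.2% of all genes). Cyp7a1, which catalyses the limiting step from cholesterol to bile acids, had 11.95, 12.58 and 13.04 in restricted livers and 13.40, 13.62 and 14.19 in control livers. The groups did not overlap, and the difference of -1.13 ± 0.24 (adjusted p = 0.000111) stood beside -0.88 in the other strains. Baat, which conjugates bile acids with taurine or glycine, fell by 1.16 ± 0.15. Abcb4, the phosphatidylcholine exporter of the canalicular membrane, rose by 0.69 ± 0.16 in CBA/J and fell by 0.68 in the other strains (difference 1.37 ± 0.18, adjusted p = 2.5e-09). With median centring the CBA/J difference of Abcb4 was 0.01.

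Among drug-metabolizing enzymes, 4 of 19 measured cytochrome P450 and receptor genes rose and 6 fell, and 6 of 22 phase II genes rose and 6 fell. Cyp2c29 had 13.15, 13.50 and 14.22 in restricted livers and 14.62, 15.47 and 16.02 in control livers, and fell by 1.91 ± 0.23, more than in the other strains (difference -1.22 ± 0.25, adjusted p = 7.6e-05). Cyp3a25 fell by 0.84 ± 0.14 and Ugt2b35 by 1.28 ± 0.15. Sult1d1, a sulfotransferase, fell by 1.31 ± 0.27 in CBA/J and rose by 0.49 in the other strains (difference -1.80 ± 0.29, adjusted p = 1.1e-06).

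Of 22 measured cytosolic heat shock genes 14 fell, 1 rose and 7 were not called, 63.6% lower against 17.2% of all genes, with a median of -0.43 in CBA/J and -0.32 in the other strains. With median centring the list median was -1.23 against -0.46 for all genes. Hsp90aa1, the inducible cytosolic HSP90, had 10.61, 11.19 and 11.79 in restricted livers and 12.22, 12.86 and 13.56 in control livers. The groups did not overlap, and the difference of -1.71 ± 0.20 (adjusted p = 4.13e-11) stood beside -1.001 in the other strains, where each strain was called lower. Hspa1b, an inducible HSP70, fell by 3.19 ± 0.51, with 9.40, 10.11 and 10.63 in restricted livers and 10.90, 13.42 and 14.64 in control livers. This was 2.18 ± 0.56 beyond the fall in the other strains (difference -2.18, adjusted p = 0.0018). Hspa1a fell by 3.44 ± 0.63, but it is a near-identical copy of Hspa1b and their probes may share signal. Hspb1, the small heat shock protein HSP27, rose instead, with 9.38, 10.40 and 10.64 in restricted livers and 7.55, 8.04 and 9.01 in control livers. Its difference was 2.10 ± 0.27 (adjusted p = 1.22e-09) and 2.37 by a further probe set, against -0.12 in the other strains (contrast 2.22 ± 0.30, adjusted p = 8.5e-09).

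The promoters of these genes were read from RefSeq (GRCm38.p6), as 250 bases before and 50 after the annotated start. The heat shock element form GAANNTTC, which reads the same on both strands, was in 10 of the 20 list promoters found, 50% against 7.86% of all 32851 promoters. Of the 10 genes with it 6 fell and 1 rose, and of the 10 without it 6 fell and 0 rose. The 150 bases before the start are shown for the gene that rose and for 3 that fell, with the motif in capitals, on the strand of the gene. They lie at chr5:135887769-135887918 (plus strand) for Hspb1, chr17:34959239-34959388 (minus strand) for Hspa1b, chr4:40722318-40722467 (plus strand) for Dnaja1 and chr1:55087998-55088147 (plus strand) for Hspe1.
Hspb1: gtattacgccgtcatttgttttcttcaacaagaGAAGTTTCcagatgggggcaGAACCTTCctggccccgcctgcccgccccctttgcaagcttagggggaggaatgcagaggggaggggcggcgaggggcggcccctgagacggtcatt
Hspa1b: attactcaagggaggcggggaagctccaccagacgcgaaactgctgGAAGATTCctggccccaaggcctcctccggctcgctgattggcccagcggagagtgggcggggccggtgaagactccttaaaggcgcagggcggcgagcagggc
Dnaja1: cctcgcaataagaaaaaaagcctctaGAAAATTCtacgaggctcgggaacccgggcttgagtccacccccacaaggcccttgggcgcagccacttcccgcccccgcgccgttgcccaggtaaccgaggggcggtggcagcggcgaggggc
Hspe1: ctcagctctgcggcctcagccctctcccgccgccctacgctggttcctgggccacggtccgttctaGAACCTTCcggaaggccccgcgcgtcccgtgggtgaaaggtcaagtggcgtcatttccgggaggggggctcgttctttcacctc
Hspb1 holds the motif at 2 places and the other 3 shown at 1. Chordc1, not shown, also holds it at 2 places within the 300 bases and was called lower (-0.86). Neither presence nor number of these letters separated the gene that rose from those that fell. The sterol regulatory element form TCACNCCAC, searched on both strands, was in 1 of 16 cholesterol synthesis promoters found, that of Hmgcs1, against 1.24% of all promoters.

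In the endoplasmic reticulum 4 of 26 measured chaperone and unfolded protein response genes rose and 6 fell. These shares, 15.4% and 23.1%, lie near the 13.6% and 17.2% of all genes. The genes named next are all among those that fell. Canx, the lectin chaperone calnexin, had 10.83, 11.66 and 12.53 in restricted livers and 12.98, 13.23 and 13.50 in control livers. The groups did not overlap, its 3 probe sets fell by 1.60, 1.35 and 1.11, and the other strains were at -0.07 (contrast -1.54 ± 0.19, adjusted p = 1.1e-09). Dnajb9, a co-chaperone, fell by 1.91 ± 0.20 and 1.38 ± 0.22 beyond the other strains (contrast -1.38, adjusted p = 8.8e-07). Hsp90b1, the HSP90 of this compartment, fell by 1.43 ± 0.24 by the probe set used and was at -0.03 by its other one, and Hspa13 by 2.06 ± 0.35. Hspa5, the central chaperone BiP, fell by 0.45 ± 0.16 (adjusted p = 0.0207), a call lost without control replicate 6.

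The lists of protein and RNA turnover are set against the 13.6% higher and 17.2% lower of all genes. In the lysosome and autophagy list 3 of 23 measured genes rose and 7 fell (30.4% lower), in the proteasome 6 of 30 rose and 8 fell (26.7% lower), in the spliceosome and RNA-binding list 3 of 22 rose and 7 fell (31.8% lower), and among translation factors 1 of 16 rose and 4 fell (25% lower). Of 19 cytosolic ribosomal proteins 6 rose and 2 fell. Lamp2, a lysosomal membrane protein, fell by 0.82 ± 0.08 (adjusted p = 3.35e-13), with 13.78, 13.90 and 14.07 in restricted livers and 14.44, 14.80 and 14.93 in control livers. Dnase2a, the lysosomal DNase, fell by 3.12 ± 0.41 to below the array median, beside -1.57 in the other strains. Ctsz, a cathepsin, fell by 2.19 ± 0.27 by the probe set used, while its other 2 probe sets were at -0.09 and -0.24, neither called. Psma5 and Psmd12, proteasome subunits, fell by 0.83 and 0.79, with the other 2 Psma5 probe sets not called. Srsf1, a splicing factor, fell by 1.27 ± 0.17 and Eif4g2, a translation initiation factor, by 1.41 ± 0.19, although the other 4 Eif4g2 probe sets were not called and ran from -0.16 to 0.60.

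Of 14 measured antigen presentation genes 7 rose and 1 fell (50% and 7.14%, against 13.6% and 17.2% of all genes). With median centring the list median was -0.00 against -0.46 for all genes. After quantile normalization the median was 0.62 in CBA/J and -0.00 in the other strains, where 1 rose. The contrast called 5 higher and 1 lower. H2-K1, a class I heavy chain, had 11.31, 12.17 and 13.47 in restricted livers and 10.81, 11.07 and 11.34 in control livers, a difference of 1.10 ± 0.18 (contrast 1.17 ± 0.20, adjusted p = 3.7e-06). The class II genes Cd74 and H2-Eb1 rose by 1.32 ± 0.35 and 1.10 ± 0.29, with restricted replicate 7 well above the rest for Cd74 (13.19, against a restricted median of 10.64). The same mouse was also the highest restricted one for H2-Eb1 (12.10), H2-K1 (13.47) and H2-D1 (12.51). The calls of these genes were not lost when this mouse was left out. H2-D1 rose by 0.79 ± 0.21 but was at -0.11 with median centring, and 0 of the 14 genes were called under all 4 scalings. Of 23 measured interferon-stimulated genes 3 rose and 4 fell (13.0% and 17.4%), close to the shares of all genes. Irf7, an interferon regulatory factor, rose by 1.19 ± 0.19 (contrast 1.18 ± 0.21, adjusted p = 7.1e-06) and Oas1a by 1.62 ± 0.32, while Irf9 fell by 0.79 ± 0.21.

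Marker means of some other cell types were also higher in restricted livers. The mean log2 signal of the 12 Kupffer cell markers ranged from 8.88 to 10.23 in restricted livers and from 8.57 to 9.20 in control livers (difference 0.47, exact permutation p = 0.0093, adjusted p = 0.017, 16 measures). In the other 5 strains the diet difference of this mean ran from -0.60 to 0.57. Of the 12 markers 4 rose and 1 fell, and 0 were called under all 4 scalings. Among those that rose were Adgre1 at 1.14 ± 0.23 and Clec4f at 0.91 ± 0.28, which was at -0.02 with median centring. Lymphocyte and neutrophil marker means were higher by 0.79 and 0.81 (adjusted p = 0.0056 and 0.0041). Singly, however, 0 of 10 lymphocyte markers rose and 1 fell, and 2 of 7 neutrophil markers rose and 0 fell. In both diets 5 of the 10 and 3 of the 7 lay below the array median. Pancreatic acinar markers were higher by 0.78 (adjusted p = 0.029) and hepatocyte markers by 0.27 (adjusted p = 0.005). Endothelial, stellate, cholangiocyte, erythroid and adipocyte and muscle marker means did not pass the test (adjusted p = 0.71, 0.89, 0.12, 0.15 and 0.20). Of 12 endothelial markers 2 rose and 2 fell, with Kdr, a VEGF receptor, at 1.37 ± 0.31. Of 12 stellate cell and fibroblast markers 3 rose and 2 fell. Col1a2, a collagen chain, was at 1.31 ± 0.22 by the probe set used and at -0.79 by another, which was not called. Colec11, a collectin that was listed there, was at -1.57 ± 0.24 by the probe set used (contrast -1.89 ± 0.26, adjusted p = 1.6e-08). Another Colec11 probe set was at -0.165 and not called. In whole liver, more cells of a type and more RNA per cell cannot be told apart, and the part of other cells in the gene differences was not tested.

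Genes of plasma proteins sat near the top of the signal range. Of 24 measured acute phase genes 5 rose and 0 fell, with Alb at 0.28 ± 0.06, Hp at 0.33 ± 0.09, Hpx at 0.21 ± 0.06 and Ttr at 0.19 ± 0.05 after quantile normalization. On the deposited scale these 4 were at 1.95, 1.40, 1.68 and 1.91, and the list median was 0.81 against 0.20 after quantile normalization. Among 19 apolipoprotein and lipoprotein genes 2 rose and 4 fell, with Apoc4 at -0.59 ± 0.08 and Abca1, the cholesterol exporter, at -0.80 ± 0.16. In the complement and coagulation list 5 of 23 rose and 4 fell. Of 22 antioxidant and NRF2 target genes 2 rose and 3 fell, and Keap1, the NRF2 inhibitor, rose by 0.70 ± 0.11 against a fall of 0.29 in the other strains (contrast 0.99 ± 0.12, adjusted p = 1.1e-09), but was at -0.23 with median centring. Periportal hepatocyte genes showed 5 higher and 2 lower of 13, and pericentral genes 4 and 4 of 14, with the pericentral glutamine synthetase Glul at -1.07 ± 0.20 by the probe set used and 0.59 by another (adjusted p = 0.0522).

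Clock genes and glucocorticoid targets showed no common direction. Of 18 measured clock genes 4 rose and 4 fell (22.2% each, against 13.6% and 17.2% of all genes). Clock fell by 1.62 ± 0.29, Nr1d2, a clock repressor, by 1.02 ± 0.22 (contrast -1.23 ± 0.24, adjusted p = 3.1e-05), and Csnk1e, a clock kinase, rose by 1.07 ± 0.20. Arntl and Per2 were not called (-0.19 ± 0.56 and -0.85 ± 0.45). Of 16 glucocorticoid targets 3 rose and 3 fell. Gadd45b rose by 1.41 ± 0.38 and Mt2, a metallothionein, by 1.51 ± 0.41, while Tsc22d3, a classic glucocorticoid target, fell by 1.72 ± 0.35 and Sgk1 by 0.67 ± 0.18. Of 20 cell cycle genes 4 rose and 2 fell, of 12 p53 targets 1 rose and 2 fell, and of 14 liver transcription factors 3 rose and 4 fell.

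**Figure D5:**
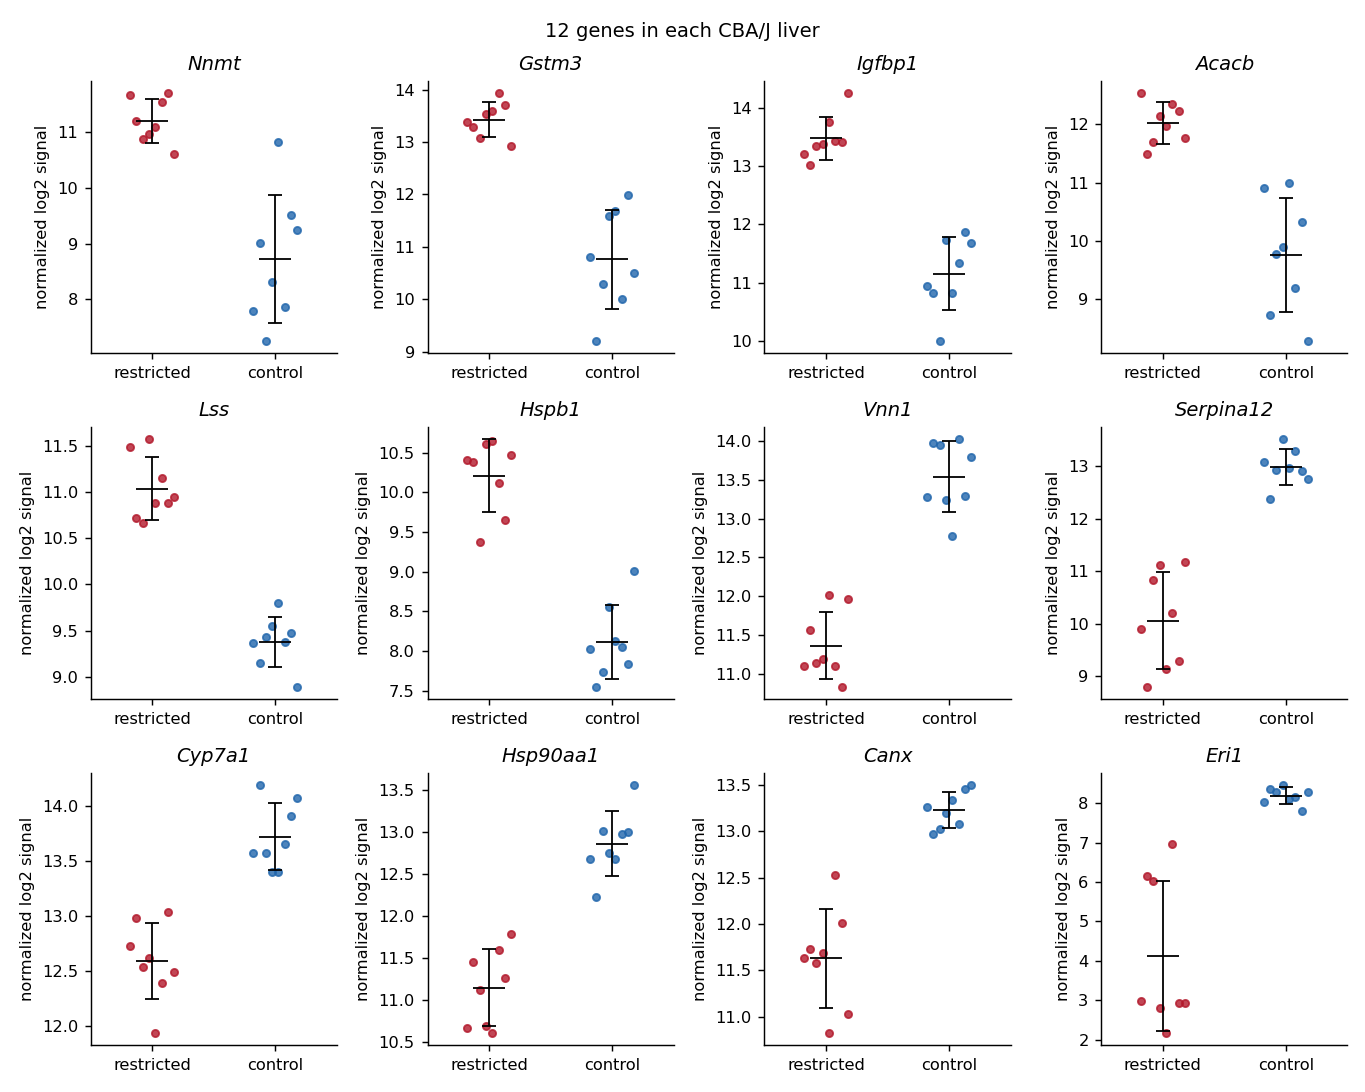
Points are the normalized log2 signals of 12 genes in single CBA/J livers, restricted on the left and control on the right, and black marks are the mean with SD. The groups do not overlap in 11 of the panels, and in the Nnmt panel 1 control mouse at 10.82 enters the restricted range.

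The largest rises were mostly genes that were dim in control livers. By the naming rule the 14 largest were Henmt1, Gm32743, Ptprn, Adam21, Ifi27l2b, Rims1, Kcng2, Relt, Perm1, Gstm3, AA619741, Gm10037, Garem2 and Nnmt, with differences between 2.48 and 3.27. Of these, 11 lay below the array median (6.71) on average in control livers, and in the other strains those 11 ran from -0.19 to 0.20. Henmt1, a methyltransferase of germline small RNAs, had 6.09, 7.05 and 8.30 in restricted livers and 1.44, 3.50 and 6.86 in control livers, a difference of 3.27 ± 0.80 (adjusted p = 0.000729). Relt, a TNF receptor family member, had 8.00, 9.36 and 10.59 in restricted livers and 4.99, 6.84 and 7.66 in control livers, a difference of 2.70 ± 0.54. Ptprn, of neuroendocrine secretory granules, and Rims1, of the synaptic active zone, rose by 2.93 ± 0.72 and 2.81 ± 0.61. At such signals MAS5 values spread widely, with control SDs of 1.92 for Henmt1 and 2.01 for Perm1.

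The largest falls were genes that dropped to a dim level in restricted livers. The 14 were Eri1, Zfp748, Cks1b, Caap1, Sh3bgrl, AU041133, Hps5, Ttc7b, Sema3d, Hspa1a, Rp2, Zfp267, Slc35a5 and Secisbp2l, with differences between -4.08 and -3.33, and the other strains ran from -0.49 to 0.12. Of these, 12 lay below the array median on average in restricted livers. Eri1, an exoribonuclease of histone mRNA decay, had 2.18, 2.95 and 6.96 in restricted livers and 7.80, 8.23 and 8.46 in control livers. The groups did not overlap and the difference was -4.08 ± 0.34 (adjusted p = 4.65e-17), while its other probe set fell by 1.77 ± 0.45. This SE comes from the spread shared by all groups, and the restricted mice were spread far more widely than the control mice. Sh3bgrl, a small thioredoxin-fold protein, remained above the array median, with 7.74, 8.81 and 10.41 in restricted livers and 12.26, 12.56 and 13.17 in control livers. All 3 of its probe sets fell, by 3.75, 2.89 and 2.14, and the other strains were at -0.20. Cks1b, a subunit of cyclin-dependent kinases, fell by 3.96 ± 0.48, but its other probe set was at -0.18 (adjusted p = 0.61). Secisbp2l fell by 3.33 ± 0.44 by the probe set used, where restricted replicate 5 was at 1.92 and the restricted median at 9.06, but a further probe set was at -0.06.

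The test of the CBA/J diet effect against the mean of the other 5 strains called 1442 genes higher (9.73%) and 2186 lower (14.8%), of which 272 and 1632 held under all 4 scalings. The 8 genes furthest above the other strains were Henmt1, Gm32743, Adam21, Cxxc4, Kcng2, Rims1, Ptprn and Ntrk3, with contrasts between 2.70 and 3.27. All 8 lay below the array median in control livers, where the 5th percentile of the arrays also differed between the diets, so their order and exact size are a description. The 8 furthest below were Eri1, Serpina7, Hps5, Gca, Zfp748, Sh3bgrl, Caap1 and Cks1b, with contrasts between -4.13 and -3.49. Serpina7, the thyroxine-binding globulin, had 5.21, 8.75 and 9.81 in restricted livers and 10.72, 11.61 and 12.10 in control livers. It fell by 3.28 ± 0.51 in CBA/J and rose by 0.63 in the other strains, a contrast of -3.91 ± 0.56 (adjusted p = 5e-08). Gca, the calcium-binding grancalcin, fell by 3.24 ± 0.55 to a dim level, with 0.43 in the other strains. Cxxc4, an inhibitor of Wnt signalling, rose by 2.55 ± 0.63 and was below the array median in both diets, and Ntrk3, a neurotrophin receptor, rose by 2.16 ± 0.58. Among the contrasts given above, those of Pnpla2, Acads, Oat, Csad, Abcb4, Irf7, H2-K1 and Keap1 lost their call with median centring and that of Hao2 on the deposited scale.

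Different probe sets of 1 gene moved in opposite directions in CBA/J more often than in the other strains. Of 1659 genes with 2 or more probe sets called in CBA/J, 375 had calls in both directions (22.6%). The share was 0.88% in 129S1/SvImJ, 0% of 89 genes in C57BL6/J, 0% of 36 in C3H/HeJ, 4.37% in DBA/2J and 1.85% in B6C3F1/J. Mthfd1, a folate enzyme, was at 1.33 ± 0.16 by its brightest probe set and at -1.80 ± 0.33 by its dimmest. Mdh1, the cytosolic malate dehydrogenase, was at 0.62 ± 0.10 by the brightest and at -0.998 and -0.74 by the next 2. Hnrnpk, an RNA-binding protein, was at -2.66 and -1.38 by 2 probe sets and at 0.60 by another, and a subunit of complex IV, Cox5a, was at -0.74, 0.29 and -1.79. In the other strains the mean differences of the 3 Cox5a probe sets were 0.26, 0.21 and 0.28. The naming rule left out genes with such opposite calls among the largest rises and falls, and 306 of the called genes had one. The cause of the opposite calls was not tested.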

How the data were processed

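The authors deposited MAS5 signals for 45101 probe sets, an intensity on a linear scale, made from biotin-labelled cRNA of total RNA per the labels. Each array had been scaled to a trimmed mean of about 500.0 (the outer 2% left out). MAS5 is named in the submitters' processing notes with no version. Log2 values of the deposited signals were quantile-normalized in R 4.3.3. Probe sets at or above the array median in at least 8 of 96 arrays were kept (32984, with 64 controls left out). Of all probe sets, 34958 had 1 gene in the annotation, 932 several and 9211 none, and 34754 matched the GRCm38.p6 gene table. A gene was represented by its brightest kept probe set. The 12 group means were fitted in limma 3.58.1 (lmFit, eBayes with trend and robust variances), with Benjamini-Hochberg adjustment over 14813 genes. The contrasts were CBA/J restricted minus control, and that difference minus the mean of the other 5 strains. The fit was tested on simulated data. Alternatives changed the scaling, offset, filter, probe set rule, variance model, covariates and arrays used. Array measures were compared by exact two-sided permutation.

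The named genes were the 14 largest rises and falls (called also with 75th percentile centring, with no opposite probe set, and with the higher group above the array median), the 8 largest contrasts each way by the same conditions (there with the highest of all 12 group means above the array median), up to 4 members with the smallest p of each of 48 lists, and a set of metabolic and clock genes. The comparison and the lists were chosen with earlier results of these data known. A count of a list is a description with no test of its own. Replicate numbers did not pair the mice: same-numbered arrays of the 2 diets had deviations that correlated between -0.011 and 0.020, with 0 of 8 pairs above 0.1. Precision is limited by the number of arrays, and nothing in the labels beyond 1 mouse per array describes cohorts. The limma SEs and p-values rest on 1 spread per gene shared by all 12 groups, not on the CBA/J mice alone. Where restricted CBA/J mice spread more widely than that, as for Eri1, the SE understates their spread. The fit of the 16 CBA/J arrays alone called 2533 genes higher and 2204 lower. Figures used Python 3.11.15 and matplotlib 3.10.9.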

Additional observations from a re-analysis of the deposited data

Results flagged for a closer look

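Within each CBA/J group the highest or lowest mouse was set against the rest by Dixon's ratio, the gap to its neighbour over the range of the group, and compared with Dixon's 95% limit for 8 mice. Of 292 groups of named genes and 32 groups of array measures, 26 passed the limit, and chance passes about 1 in 20. In restricted livers a mouse lay below the rest for Secisbp2l (0.813, replicate 5), Sirt1 (0.605, replicate 7), Hao2 (0.571, replicate 5), Baat (0.562, replicate 1), Oas1a (0.661, replicate 2) and Ttr (0.626, replicate 2). A restricted mouse lay above the rest for Scd1 (0.685, replicate 6), H2-D1 (0.551, replicate 7), Cd74 (0.665, replicate 7) and Adgre1 (0.551, replicate 3). Among control livers replicate 2 lay below the rest for Igf1 (0.887), Gys2 (0.65), Pck1 (0.615), Cox5a (0.569), the endothelial marker mean (0.559), Cd74 (0.548), Gpt2 (0.542) and Per2 (0.536), and above the rest for AU041133 (0.589) and Psmd12 (0.544). Other control mice lay apart for Cux2 (0.825, replicate 4), the pancreatic acinar marker mean (0.616, replicate 5), Ntrk3 (0.586, replicate 1), Ptprn (0.582, replicate 4), Hsd3b5 (0.561, replicate 5) and Irf9 (0.534, replicate 4).

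For the 36 genes listed here the CBA/J diet effect differed from the mean of the other 5 strains. The test was a contrast in the same limma fit. Henmt1 to Ntrk3 and Eri1 to Cks1b, in the order below, were chosen as the largest contrasts already called in that fit. Their passing was fixed by that choice, so the number 36 is a description. Of all genes the contrast called 9.73% higher and 14.8% lower. It also called named genes not listed here, among them Sirt1 (-1.64) and Cux2 (-2.94). CBA/J was above the other strains, in log2 units, for Henmt1 (3.27), Gm32743 (3.06), Adam21 (3.05), Cxxc4 (3.04), Kcng2 (2.82), Rims1 (2.77), Ptprn (2.76), Ntrk3 (2.70), Hspb1 (2.22), Abcb4 (1.37), Pnpla2 (1.22), Irf7 (1.18), H2-K1 (1.17), Csad (1.08), Keap1 (0.99), Oat (0.93) and Acads (0.81). It was below them for Eri1 (-4.13), Serpina7 (-3.91), Hps5 (-3.70), Gca (-3.67), Zfp748 (-3.56), Sh3bgrl (-3.55), Caap1 (-3.52), Cks1b (-3.49), Cyp2b13 (-2.92), Hao2 (-2.64), Hspa1b (-2.18), Colec11 (-1.89), Sult1d1 (-1.80), Ctsz (-1.80), Canx (-1.54), Cd36 (-1.40), Dnajb9 (-1.38), Nr1d2 (-1.23) and Cyp2c29 (-1.22). Of these contrasts, those of Pnpla2, Acads, Oat, Csad, Abcb4, Irf7, H2-K1 and Keap1 lost their call with median centring, and that of Hao2 on the deposited scale. The raised median and narrower range of the restricted CBA/J arrays go with these contrasts, and their part in them was not tested.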

How the results depend on the processing

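The number of genes called moved by more than 1.5 times with the scaling and with several other choices. Against 2008 higher and 2550 lower genes in the CBA/J diet effect, the deposited scale gave 3714 higher, median centring 447 higher and 5274 lower, the deposited scale with the array median as a covariate 3164 higher, all 4 scalings together 417 higher, and every probe set on its own, which counts probe sets and not genes, 5595 lower. Against 1442 higher and 2186 lower genes in the contrast with the other 5 strains, the deposited scale gave 2776 higher, median centring 300 higher and 4945 lower, the covariate 2717 higher and 1409 lower, all 4 scalings 272 higher, the Gapdh covariate 2333 higher, leaving out 2 arrays of other strains (DBA/2J restricted replicate 6 and B6C3F1/J control replicate 2) 2290 higher, and every probe set on its own 4648 lower. Leaving out each CBA/J mouse in turn gave between 1785 and 2042 higher and between 2354 and 2624 lower genes, and in the contrast between 1271 and 1512 higher and between 2031 and 2302 lower. Replicate numbers did not pair the mice, and the replicate block gave 2054 higher and 2567 lower genes, 1467 and 2194 in the contrast, and changed no call of the 146 named genes.

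Scd1 turned to 1.56 on the deposited scale, 1.42 with 75th percentile centring, 0.78 with median centring and 1.75 under the covariate. Median centring also turned Akt2 (-0.19), H2-D1 (-0.11), Keap1 (-0.23) and Clec4f (-0.022). The covariate turned Acadm (0.12), Ldha (0.53), Cox5a (0.16), Ugt2b1 (0.35), Ghr (0.53), Hspa5 (0.43) and Apoc4 (0.30). Averaging probe sets of a gene turned Mdh1 (-0.42), Mthfd1 (-0.069) and Igf1 (-0.68), and each probe set on its own turned Hmgcs1 (-1.69), Cpt1a (-1.31) and Igf1 (-1.17). The fit of the 16 CBA/J arrays alone used another probe set for Hnrnpk (0.13) and Glul (0.62). The cause of the other turns was not tested. The alternatives of all 4 scalings, of leaving out genes with opposite probe sets and of leaving out dim genes were chosen after seeing the data. Signals below the array median limit what can be said, since 249 called genes lay there in both diets.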
